A study of Mus musculus with 6 samples.

Results

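The genes described here make the proteins that carry a light signal forward in rod photoreceptors, from the G protein that the visual pigment switches on to the channel and exchanger that set the ion flow of the outer segment. They are 9 genes, chosen by name: Gnat1, Gnb1 and Gngt1 for transducin, Pde6a, Pde6b and Pde6g for the cGMP phosphodiesterase, Cnga1 and Cngb1 for the cGMP-gated channel, and Slc24a1 for the exchanger. All 9 had a row among the 24346 gene symbols of each library. The values are FPKM (sequenced fragments counted per kilobase of a transcript and scaled to all mapped fragments), so levels of different genes can be set side by side per length. The series holds 6 mouse libraries labelled as brain at embryonic day 17.5. In 3 of them the genotype label is miR-124a-1/2 DKO, a double knockout of 2 loci of the neuronal microRNA miR-124a, and 3 are controls labelled miR-124a-1+/-, so no group carries the full set of miR-124a-1 alleles. The sources used here give no strain, sex, litter or design of the deleted alleles, and the file headers of the libraries labelled DKO read CKO, which the labels do not explain.

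In the dark a rod keeps cGMP high, cGMP holds the channel open, and sodium and calcium flow in. Light turns on the visual pigment, which makes the transducin alpha subunit exchange GDP for GTP and leave the beta and gamma subunits. The alpha subunit then pulls the inhibitory subunits off the phosphodiesterase, cGMP is broken down, the channel closes and the cell hyperpolarizes, while the exchanger goes on removing calcium. Cones run the same sequence with their own set of genes, which makes each rod gene comparable with a named counterpart.

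In both groups the levels of the 9 genes went against the labelled tissue and age. All 9 lay between rank 3 and rank 292 of the rows in every library. Markers of the embryonic forebrain were near the floor: the summed level of 6 such genes was 4.04 to 4.34 FPKM in the libraries labelled DKO and 3.78 to 4.57 FPKM in the libraries labelled control, and Emx1 is listed at 0 in all 6. Genes of dividing cells summed to 0.729 to 1.25 FPKM over 4 genes. Markers of retinal classes differed widely in level, with 1608 to 1766 FPKM over 4 Müller glia genes, 7.01 to 8.36 FPKM over 2 horizontal cell genes and 1.08 to 2.199 FPKM over 3 genes of the pigment epithelium, the last as low as the forebrain genes. Sums of 4 classes did not overlap between the labels: 3 cone genes (234 to 264 FPKM under the DKO label, 277 to 308 FPKM under the control label), 5 bipolar cell genes (438 to 452 and 461 to 470 FPKM), 3 ganglion cell genes (47.0 to 50.6 and 52.1 to 56.6 FPKM) and 3 amacrine cell genes (267 to 273 and 234 to 248 FPKM). Among all rows tested, 13.9% had groups that did not overlap. Not every gene followed its class: Arr3, Grm6, Prkca, Cabp5, Rbpms and Slc6a9 each overlapped between the labels. Grm6 was on average higher under the DKO label, at 59.6 against 57.2 FPKM, and Prkca was at 52.4 FPKM under both. The part of these classes in the comparisons of the labels was not tested. Lens genes (3 crystallins) summed to 17.6 to 32.1 FPKM under the DKO label and 30.5 to 179 FPKM under the control label, the highest being control replicate 2. The host transcript Mir124a-1hg stood at 420 to 528 FPKM over the 6 libraries, with overlapping groups. The host transcript 2610100L16Rik measured 69.9, 98.0 and 97.8 FPKM under the DKO label and 80.3, 110.5 and 115 FPKM under the control label, also overlapping. The genotype could not be read from these rows, and each group is named by its label only. Sums per library were 402832 to 436299 FPKM, and the steps between low values put the depth of the other libraries at 0.955 to 1.24 times that of DKO replicate 1.

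Promoter windows are shown for 4 of the genes: the widely used beta subunit gene, and genes largely restricted to photoreceptors that include both channel subunits. The photoreceptor genes shown are those whose window holds the word marked below. Of the 9 genes, Gnb1, Gngt1, Pde6b, Cnga1, Cngb1 and Slc24a1 matched a RefSeq window of 250 bases before to 50 bases after the start (GRCm38.p6). Each is printed 5′ to 3′ on the strand of its gene, with capitals marking the word TAATCC, the core of sites for the photoreceptor homeodomain factor CRX, on either strand.
Gnb1: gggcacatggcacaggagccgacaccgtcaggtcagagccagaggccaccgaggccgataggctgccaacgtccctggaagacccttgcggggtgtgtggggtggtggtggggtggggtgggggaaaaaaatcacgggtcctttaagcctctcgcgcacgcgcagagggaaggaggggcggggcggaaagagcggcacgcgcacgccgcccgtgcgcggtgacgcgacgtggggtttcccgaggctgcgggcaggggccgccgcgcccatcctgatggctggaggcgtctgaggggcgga
Gngt1: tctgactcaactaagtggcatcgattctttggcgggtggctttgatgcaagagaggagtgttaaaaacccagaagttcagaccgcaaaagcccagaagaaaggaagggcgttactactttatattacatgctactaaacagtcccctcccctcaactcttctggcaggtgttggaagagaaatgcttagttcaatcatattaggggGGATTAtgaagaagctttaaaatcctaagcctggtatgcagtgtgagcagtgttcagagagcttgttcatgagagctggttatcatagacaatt
Cnga1: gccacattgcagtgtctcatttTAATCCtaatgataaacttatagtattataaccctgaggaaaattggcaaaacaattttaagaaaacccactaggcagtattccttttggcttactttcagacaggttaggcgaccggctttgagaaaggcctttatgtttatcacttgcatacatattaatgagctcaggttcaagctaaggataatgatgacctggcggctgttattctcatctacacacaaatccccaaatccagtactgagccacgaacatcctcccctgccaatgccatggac
Cngb1: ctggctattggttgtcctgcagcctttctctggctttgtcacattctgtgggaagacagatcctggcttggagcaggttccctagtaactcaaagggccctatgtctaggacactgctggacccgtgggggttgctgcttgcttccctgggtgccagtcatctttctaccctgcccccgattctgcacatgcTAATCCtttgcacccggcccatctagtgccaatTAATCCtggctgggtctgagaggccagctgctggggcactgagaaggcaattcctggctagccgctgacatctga
The windows lie at chr4:155491111-155491410 on the plus strand for Gnb1, chr6:3993758-3994057 on the plus strand for Gngt1, chr5:72642703-72643002 on the minus strand for Cnga1 and chr8:95306536-95306835 on the minus strand for Cngb1.

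The CRX word was found in 3 of the 6 windows, against 7.06% of all 32817 RefSeq windows. Those 3 are the photoreceptor windows printed above. The windows of Pde6b and Slc24a1, which are not printed, lacked it, as did that of Gnb1. Cngb1 held it at 2 places, at bases -58 to -53 and -25 to -20 from the start, both on the strand of the gene. Gngt1 held it once, at -44 to -39 on the other strand, and Cnga1 once, at -228 to -223. These positions hold for the RefSeq starts only. In the GENCODE M21 annotation Gngt1 starts further upstream, at 3993792, and so does Cnga1, at 72644275 on the minus strand. By that annotation the words of Gngt1 and Cnga1 lie inside the genes. Of the other words searched on both strands, TGCTGA, a half-site of the rod factor NRL, was present in Pde6b at -8 to -3, and 19.5% of all windows hold it. The word AAGTCA, a half-site of the rod nuclear receptor NR2E3, was present in 0 of the 6 windows, against 15.1% of all. The searched words do not overlap each other in these windows. The Gnb1 window had 31 CpG pairs and 70.3% G+C, against 4 to 6 CpG pairs and 41.3% to 56.0% G+C in the other 5 (medians over all windows, 7 pairs and 52.7%). These matches describe letters in a window and not binding. The factors themselves were at 467 to 546 FPKM for Crx, 593 to 679 FPKM for Nrl and 430 to 600 FPKM for Nr2e3.

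Transducin had the highest summed level of the 4 parts of the cascade, with 55.2% to 56.97% of the FPKM of the 9 genes. Gnat1, the alpha subunit that binds GTP and activates the phosphodiesterase (GRCm38 chromosome 9, 107674474 to 107679712, minus strand, 9 exons), measured 2681, 2620 and 2674 FPKM in DKO replicates 1 to 3 and 2544, 2861 and 2615 FPKM in control replicates 1 to 3. It ranked 3 or 4 among all rows in every library. The lowest and the highest value were both in libraries labelled control, so the groups overlapped. Gnb1, the beta subunit (chromosome 4, 155491361 to 155559269, plus strand, 12 exons), measured 1278, 1369 and 1313 FPKM under the DKO label and 1338, 1360 and 1384 FPKM under the control label. Gnb1 also pairs with other G protein alpha subunits in most cell types, so its level is a sum over many cells. Gngt1, the farnesylated gamma subunit of rods (chromosome 6, 3993792 to 3997436, plus strand, 3 exons), measured 938, 965 and 894 FPKM under the DKO label and 1005, 883 and 892 FPKM under the control label. Gngt1 was highest in control replicate 1, where Gnat1 was lowest, and lowest in control replicate 2, where Gnat1 was highest.

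**Figure D1:**
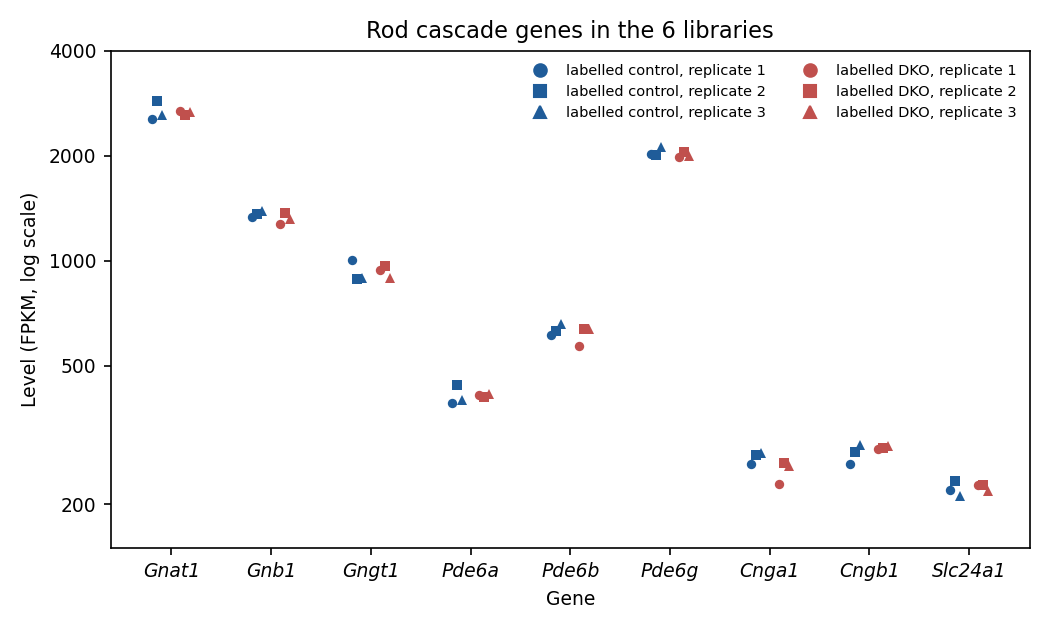
Level in FPKM on a log axis (vertical) of the 9 genes (horizontal) in each of the 6 libraries, 1 point per library, blue for the control label and red for the DKO label, with the shape giving the replicate. The points of each gene lie close together and the groups overlap for every gene, from 2544 to 2861 FPKM for Gnat1 down to 211 to 234 FPKM for Slc24a1.

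The phosphodiesterase was the second part by level, with its small inhibitory subunit far above the 2 catalytic ones. Pde6g, the gamma subunit that blocks the catalytic sites in the dark (chromosome 11, 120447605 to 120453500, minus strand, 4 exons), measured 1977, 2044 and 2001 FPKM in the libraries labelled DKO and 2028, 2004 and 2123 FPKM in those labelled control. Pde6g had the smallest spread of the 9 genes, a coefficient of variation of 2.52% over the 6 libraries. Pde6b, the catalytic beta subunit (chromosome 5, 108388391 to 108432397, plus strand, 22 exons), measured 569, 635 and 638 FPKM under the DKO label and 611, 626 and 657 FPKM under the control label. DKO replicate 1 was its lowest library. Pde6a, the catalytic alpha subunit (chromosome 18, 61220315 to 61289924, plus strand, 22 exons), measured 410, 406 and 413 FPKM under the DKO label and 391, 439 and 399 FPKM under the control label. The DKO values of Pde6a lay inside the range of the control values.

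The channel and the exchanger were the lowest of the cascade and close to each other. Cngb1, the modulatory subunit of the rod channel (chromosome 8, 95239045 to 95306585, minus strand, 33 exons), measured 288, 290 and 294 FPKM under the DKO label and 261, 283 and 295 FPKM under the control label. The same gene also makes the soluble glutamic-acid-rich proteins of rods from shorter transcripts, and 1 value per gene does not separate them. Cnga1, the subunit that forms the cGMP-gated pore (chromosome 5, 72603696 to 72644275, minus strand, 9 exons), measured 228, 263 and 257 FPKM under the DKO label and 261, 278 and 281 FPKM under the control label. Cnga1 had the largest spread of the 9, a coefficient of variation of 7.19%, with DKO replicate 1 below all other libraries, and the groups overlapped. Slc24a1, the exchanger that uses sodium and potassium gradients to carry calcium out (chromosome 9, 64922861 to 64951607, minus strand, 10 exons), measured 227, 227 and 219 FPKM under the DKO label and 220, 234 and 211 FPKM under the control label. No exon of the 9 genes overlaps an exon of another gene in GENCODE M21 on either strand, and exon numbers are those of the transcript with the longest coding part.

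In order of mean level over the 6 libraries the genes ran Gnat1 (2666 FPKM), Pde6g (2029), Gnb1 (1340), Gngt1 (929), Pde6b (623), Pde6a (410), Cngb1 (285), Cnga1 (261) and Slc24a1 (223). The ranges of neighbours in this order did not overlap down to Pde6a and Cngb1. The range of Cngb1 overlapped that of Cnga1, and the range of Cnga1 overlapped that of Slc24a1, although the first of each pair was the higher one in all 6 libraries. The 9 genes took 2.03% to 2.19% of the summed FPKM of a library. Of the 9, 7 varied less between libraries than the median row of at least 200 FPKM (coefficient of variation 4.93% over 297 such rows).

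Deviations from each gene's own mean differed in pattern within the cascade. In control replicate 2 Gnat1 stood 0.10, Pde6a 0.10 and Slc24a1 0.07 above their mean on the log2 scale, and all 3 genes had their highest value there. Control replicate 3 held the highest value of 5 genes: Gnb1, Pde6b, Pde6g, Cnga1 and Cngb1. Gngt1 was highest in control replicate 1, at 0.11 above its mean. DKO replicate 1 held the lowest value of Gnb1, Pde6b, Pde6g and Cnga1, with Cnga1 0.19 below its mean (deviation -0.19) and Pde6b 0.13 below (-0.13). No library was high or low for all 9 genes.

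**Figure D2:**
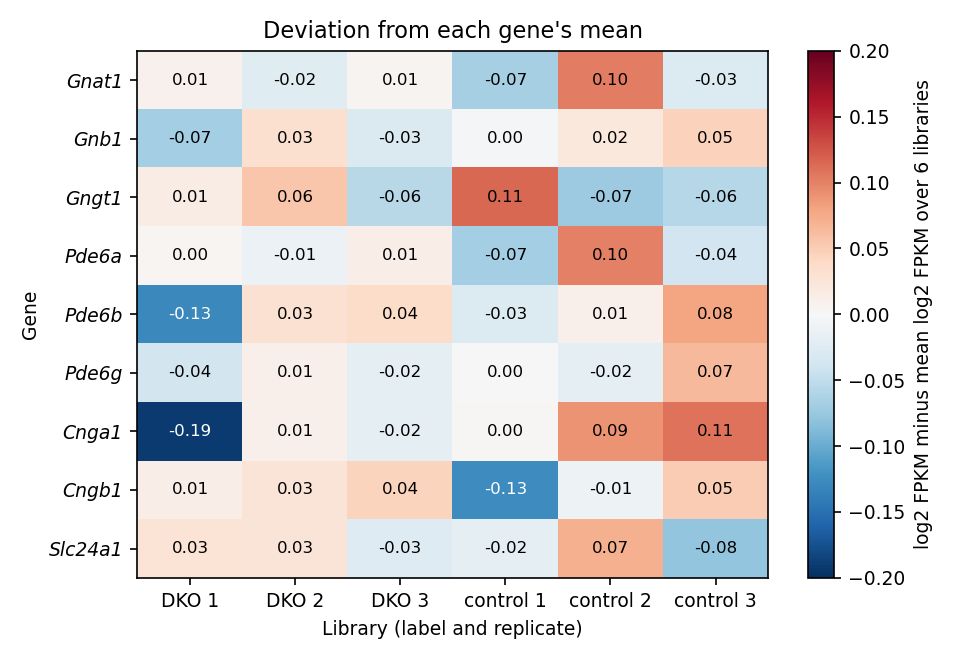
Deviation of each library (horizontal, label and replicate) from the mean of each gene (vertical), as log2 FPKM minus the mean log2 FPKM over the 6 libraries, in colour from blue (lower) to red (higher) with the value printed. The deepest cell is Cnga1 in DKO replicate 1, at -0.19, and Gnat1 and Pde6a are highest together in control replicate 2.

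Within each complex the FPKM of partner subunits stood in ratios that moved little between libraries. Transducin is assembled from single copies of its subunits, and per length the beta subunit transcript Gnb1 measured 0.475 to 0.529 of Gnat1, and Gngt1 0.309 to 0.395 of Gnat1. The 2 catalytic subunits of the rod phosphodiesterase are likewise present in equal number, and Pde6a measured 0.606 to 0.721 of Pde6b. Each catalytic pair binds a pair of inhibitory subunits. Pde6g measured 3.14 to 3.47 times Pde6b, and 1.88 to 2.02 times Pde6a and Pde6b together. The rod channel holds more alpha than beta subunits, whereas Cnga1 measured 0.793 to 0.999 of Cngb1, below it in all 6 libraries. The Cngb1 value does not separate the shorter transcripts of that gene. Slc24a1 measured 0.714 to 0.841 of Cngb1. Between the steps of the cascade, Gnat1 measured 3.98 to 4.71 times Pde6b, and Pde6b 1.98 to 2.34 times Cngb1. These are ratios of transcripts and say nothing of the protein, and the sources used here do not give the transcript lengths behind the deposited FPKM.

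Of the 6 subunit ratios compared between the groups, 1 did not overlap, beside 13.9% of all single rows tested. No ratio could pass the threshold of 0.05, because the test gives no p below 0.1 with 3 against 3. The Cnga1 to Cngb1 ratio was 0.793, 0.905 and 0.876 in DKO replicates 1 to 3 and 0.999, 0.980 and 0.952 in control replicates 1 to 3. Every library labelled DKO was lower than every library labelled control. The means were 0.858 ± 0.0578 and 0.977 ± 0.0236 (SD, n = 3 each), and the 2-sided exact permutation test over 20 assignments gave p = 0.1, the smallest it can give with 3 against 3 (0.6 after Benjamini-Hochberg adjustment over 6 ratios). The difference of -0.19 on the log2 scale lay between -0.23 and -0.13 without single libraries. Cnga1 had its lowest value in DKO replicate 1, and Cngb1 had its lowest in control replicate 1. The other 5 ratios overlapped between the groups, with exact permutation p of 0.6 to 0.9: the difference was -0.04 (log2) for Gnb1 to Gnat1, 0.02 for Gngt1 to Gnat1, 0.05 for Pde6a to Pde6b, 0.01 for Pde6g to Pde6b and -0.04 for Slc24a1 to Cngb1.

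**Figure D3:**
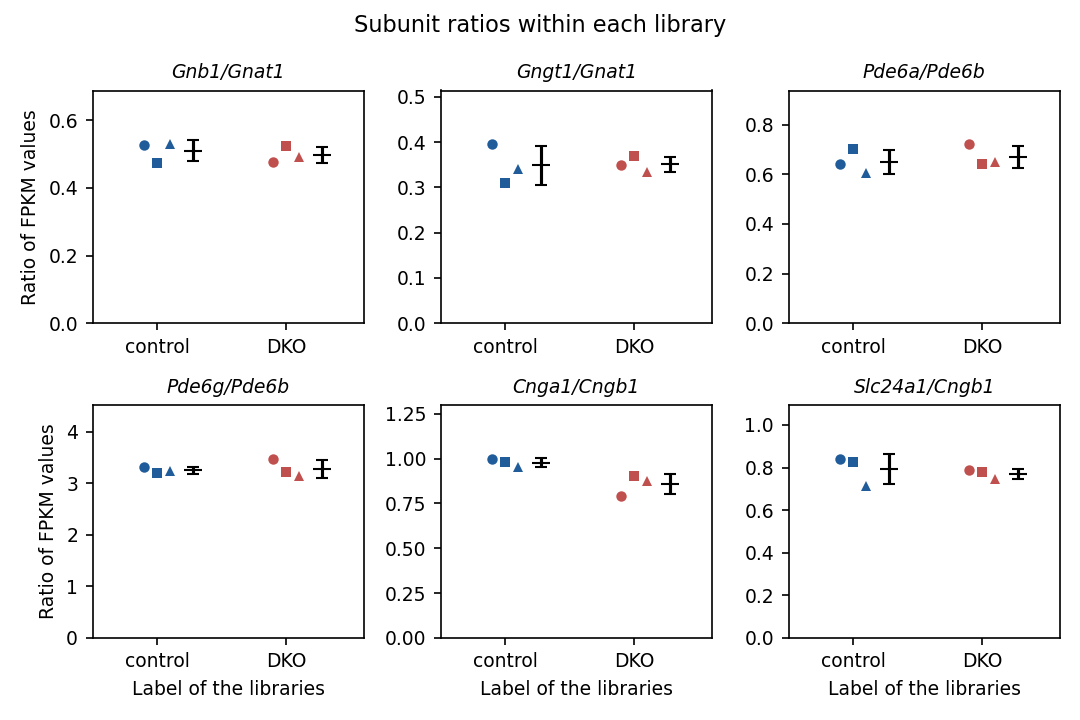
Ratio of FPKM values (vertical, from 0) for 6 pairs of subunits in the libraries of each label (horizontal), with 1 point per library and the mean and SD of 3 libraries beside them. Only for Cnga1/Cngb1 do the points not overlap, with 0.793 to 0.905 under the DKO label and 0.952 to 0.999 under the control label.

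The comparison of the labels asks whether the labelled knockout of 2 miR-124a loci goes with a change in these genes. In limma on log2(FPKM + 1) over the 13215 rows averaging 1 FPKM or more, 0 of the 9 genes passed at a Benjamini-Hochberg adjusted p under 0.05, where 0.0227% of all rows did. With no adjustment 0 of 9 had p under 0.05, against 7.88% of all rows, and 0 of 9 had groups that did not overlap, against 13.9%. Other settings of the limma fit put 1 gene at a time under 0.05 before adjustment: Cnga1 at 0.0178 with a replicate block, at 0.0441 without DKO replicate 2 and at 0.04999 without control replicate 1, and Cngb1 at 0.0443 under quantile normalization, with adjusted p of 0.455, 0.826, 0.643 and 0.613 in the same order. The 9 fold changes had both signs, 4 above 0 and 5 below, with a median of -0.0062 on the log2 scale beside -0.0016 over all rows tested. The split rests on single libraries: it was 1 above and 8 below without control replicate 3 (median -0.016), 3 and 6 without control replicate 1 (-0.039) or DKO replicate 3 (-0.010), and 5 and 4 without DKO replicate 1 (0.0032). The median was -0.015 without DKO replicate 2 and -0.023 without control replicate 2. In bulk RNA fewer cells of a type and less RNA per cell cannot be told apart, and this holds for every level given here. The 3 libraries of a group are separate samples by their titles, which name no animal or litter. The limma p-values set the difference between groups against the spread between libraries, moderated by a trend over all rows tested.

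The gene with the smallest p was Cnga1, with 249 ± 18.5 FPKM under the DKO label against 273 ± 10.7 FPKM under the control label (SD, n = 3 each). In log2 terms this was -0.13 ± 0.06 (SE), with an unadjusted limma p of 0.0669 and an adjusted p of 0.662, and its 95% interval ran from a change of -17.5% to one of 0.819%. Without DKO replicate 1 the log2 fold change was -0.07. Cngb1 had the highest fold change of the 9, with 291 ± 3.11 against 280 ± 17.1 FPKM (SD, n = 3 each), or 0.06 ± 0.05 (SE) in log2 terms, and a limma adjusted p of 0.836. Without control replicate 1 the log2 fold change of Cngb1 was 0.0078, below the 0.07 of Gngt1, and without control replicate 3 it was 0.095. Gnat1 had 2659 ± 33.2 against 2673 ± 167 FPKM (SD, n = 3 each), and its 95% interval ran from -9.99% to 10.2%. For Gnb1 the log2 fold change was -0.04 (interval -10.5% to 5.16%), for Gngt1 0.01 (-9.14% to 11.6%), for Pde6a 0.0040 (-7.92% to 9.20%), for Pde6b -0.04 (-11.7% to 6.90%), for Pde6g -0.03 (-10.01% to 6.48%) and for Slc24a1 0.02 (-6.42% to 9.65%). The intervals of all 9 genes held 0 and together spanned -17.5% to 13.1%, so changes past these bounds are outside the 95% intervals and smaller ones were not resolved with 3 libraries a group.

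**Figure D4:**
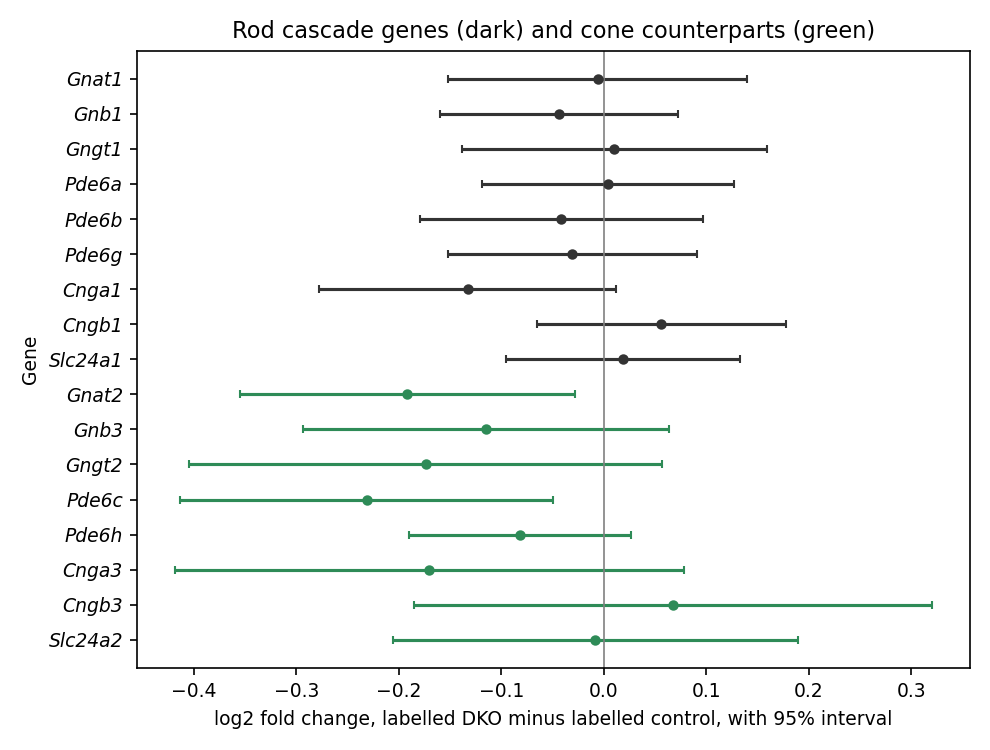
Log2 fold change of log2(FPKM + 1), libraries labelled DKO minus libraries labelled control (horizontal), with 95% intervals from limma for the 9 rod cascade genes (dark) and 8 cone counterparts (green), 1 gene per line. All 9 dark intervals cross 0, and 7 of the 8 green points lie below 0, down to -0.23 for Pde6c.

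Since the labels name a knockout of 2 miR-124a loci, the 3′ untranslated regions of the 9 transcripts were searched for the word GTGCCTT, which pairs with bases 2 to 8 of miR-124-3p. The longest annotated 3′ region of each gene in GENCODE M21 was used. Among the 9 genes only Cnga1 held the word, with its last 6 letters starting at base 1454 of 1584, against 16.1% of 12167 tested genes with such a region. The Cnga1 transcript with the longest coding part has a 3′ region of only 419 bases. One FPKM value per gene does not show which of these transcripts was present. The site is shown because Cnga1 also had the smallest p, with the word in capitals.
Cnga1: actgtaactGTGCCTTtttgtagaag
On average Cnga1 was lower in the libraries labelled DKO, by an amount that did not pass. A link between the word and this difference was not tested. The shorter word TGCCTT, which leaves out the eighth base, was present in Gngt1, Pde6g and Cnga1, 3 of 9, against 50.7% of tested genes. A match is a word in a sequence and not a measured target.

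Each rod gene stood above its cone counterpart in every library. The Gnat1 level was 47.2 to 59.4 times that of Gnat2 (45.1 to 58.5 FPKM), the cone transducin alpha gene. Cnga1 was 51.3 to 67.1 times Cnga3 (3.78 to 5.41 FPKM), the cone pore subunit. Cngb1 was 45.8 to 62.5 times Cngb3 (4.70 to 6.29 FPKM), its modulatory partner in cones. Slc24a1 was 22.9 to 27.7 times Slc24a2 (8.08 to 9.59 FPKM), an exchanger that other neurons also use. Pde6b was 15.4 to 20.7 times Pde6c (29.2 to 40.7 FPKM), the catalytic subunit of cones. The ratios were smaller for the small subunits and the beta subunit. Pde6g was 8.67 to 9.70 times Pde6h (211 to 238 FPKM), the cone inhibitory subunit. Gngt1 was 6.21 to 9.14 times Gngt2 (108 to 142 FPKM), and Gnb1 was 5.08 to 6.36 times Gnb3 (215 to 272 FPKM), which ON bipolar cells also express. In GENCODE M21 exons of Pde6h and Gngt2 overlap exons of Arhgdib and Abi3 on the opposite strand. Those genes had means of 4.23 and 1.65 FPKM. Whether the counting used strand is not given in the sources used here.

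**Figure D5:**
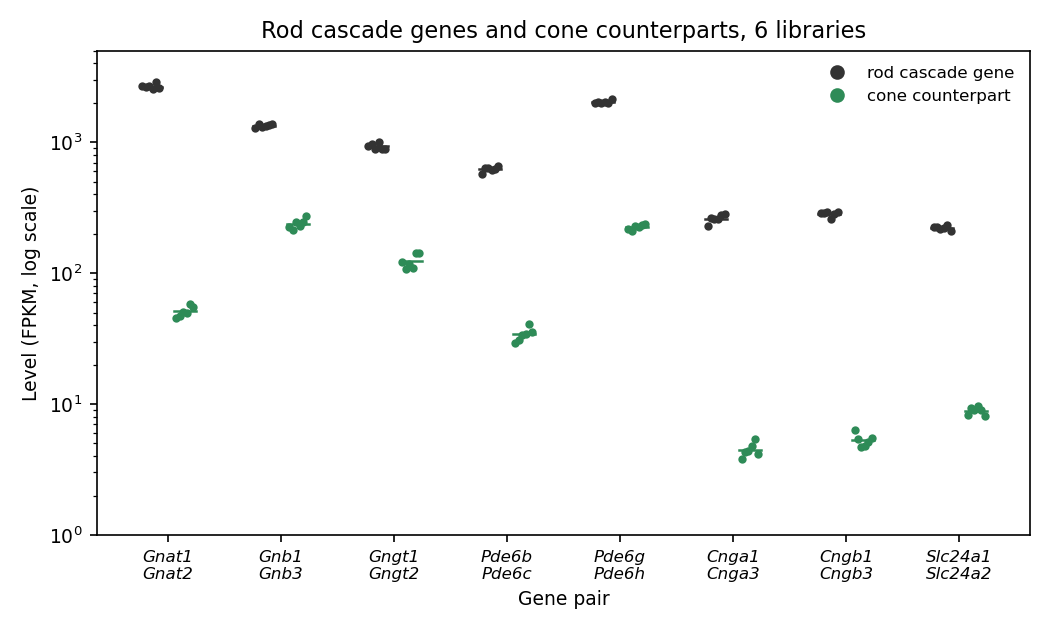
Level in FPKM on a log axis (vertical) of 8 rod cascade genes (dark) and their cone counterparts (green) by gene pair (horizontal), 1 point per library and a line at the mean of the 6. The gap is widest for Cnga1 over Cnga3, Cngb1 over Cngb3 and Gnat1 over Gnat2, and narrowest for Gnb1 over Gnb3, at 5.08 to 6.36 times.

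Between the labels 2 of the 8 rod to cone ratios did not overlap, beside 13.9% of all single rows tested. No ratio could pass the threshold, because the 2-sided exact permutation test gives no p below 0.1 with 3 against 3. Gnat1 to Gnat2 was 59.4, 55.5 and 53.4 in DKO replicates 1 to 3 and 51.5, 48.9 and 47.2 in control replicates 1 to 3, a log2 difference of 0.19. Pde6b to Pde6c was 19.5, 20.7 and 19.0 against 17.9, 15.4 and 18.4, a log2 difference of 0.20, or 0.12 without control replicate 2. For both the 2-sided exact permutation test gave p = 0.1, the smallest possible, and 0.4 after Benjamini-Hochberg adjustment over 8 ratios. The other 6 ratios had exact permutation p of 0.4 to 0.9 and log2 differences of -0.02 (Cngb1 to Cngb3) to 0.19 (Gngt1 to Gngt2). The last ran from 0.088 without control replicate 2 to 0.37 without control replicate 1. Gnat2 had a log2 fold change of -0.19 and Pde6c of -0.23, with limma adjusted p of 0.591 and 0.550, beside -0.0062 for Gnat1 and -0.04 for Pde6b. Of the 8 cone counterparts 7 lay below 0 (6 without control replicate 1 or 2), and 0 passed. Of all 13215 rows tested 6678 lay below 0, and 0.0227% passed. The median log2 fold change of the 8 was -0.14 (-0.092 without control replicate 3). With no adjustment 2 of the 8, Gnat2 and Pde6c, had limma p under 0.05, against 7.88% of all rows. Only Pde6c of the 8 had groups that did not overlap, against 13.9%. Among the cone counterparts Gnb3 had -0.12, Gngt2 -0.17, Pde6h -0.08, Cnga3 -0.17, Slc24a2 -0.0084 and Cngb3 0.07. The summed level of the cone markers Opn1sw, Opn1mw and Arr3 moved the same way, 234 to 264 FPKM under the DKO label and 277 to 308 FPKM under the control label, and its part in these ratios was not tested.

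The genes that act on or beside the cascade showed 0 calls as well. Of 12 genes for shutoff and calcium feedback 4 lay above 0 and 8 below (6 and 5, with 1 at 0, under quantile normalization), with a median of -0.02. The split was 1 and 11 without DKO replicate 1 and 7 and 5 without control replicate 2, where the median was 0.0020. Without control replicate 1 the median was -0.057, and without control replicate 3 it was -0.042. Sag, the rod arrestin, measured 2841 to 3594 FPKM and the guanylate cyclase Gucy2f 29.3 to 31.2 FPKM. The member of smallest p was Pdc, phosducin, which binds the transducin beta and gamma subunits, at 1647, 2083 and 1944 FPKM under the DKO label and 2051, 2107 and 2123 FPKM under the control label (limma adjusted p = 0.734). The low value of Pdc in DKO replicate 1 fell in the library where Gnb1 was also lowest. Of the genes that modify or carry the cascade proteins, 10 of 11 had a row, 5 above 0 and 5 below (6 and 4 without DKO replicate 2 or control replicate 1). Unc119, a carrier of the acylated transducin alpha subunit, was highest at 932 to 1075 FPKM. Pggt1b, a subunit of the geranylgeranyl transferase, was lowest at 9.85 to 13.4 FPKM. It had the smallest p (log2 fold change 0.21, limma adjusted p = 0.656). Of these 10 genes 2, Unc119 among them, had groups that did not overlap, against 13.9% of all rows tested.

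Of 9 photoreceptor transcription factors 1 lay above 0 and 8 below, with a median of -0.07. Without control replicate 3 the split was 3 and 6 (median -0.038). The median was -0.030 without DKO replicate 1, -0.033 without control replicate 2 and -0.12 without control replicate 1. Nrl, the factor that sets rod fate, was the highest of these on average. It measured 593, 637 and 617 FPKM under the DKO label and 676, 679 and 660 FPKM under the control label. Of the 9 factors only Nrl had groups that did not overlap, against 13.9% of all rows tested. Its log2 fold change of -0.13 had a limma adjusted p of 0.590. Rorb was the lowest of the 9, at 31.7 to 40.5 FPKM.

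Of 17 other G protein subunits 8 lay above 0 and 9 below, and 7 and 10 without DKO replicate 1 or 2 or control replicate 1 or 3. The highest was Gnas, the stimulatory alpha subunit, at 457 to 484 FPKM, below each of the 3 transducin genes in every library. Gng12 was the lowest at 4.41 to 5.29 FPKM. Gng4, a neuronal gamma subunit, had the smallest p: it measured 11.5, 11.7 and 11.5 FPKM under the DKO label and 15.9, 15.1 and 17.3 FPKM under the control label. Its log2 fold change of -0.44 had a limma adjusted p of 0.158. Of the 17 subunits 4, Gng4 among them, had groups that did not overlap, against 13.9% of all rows tested. The 3 transducin genes had log2 fold changes between -0.04 and 0.01 in the same fit.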

How the data were processed

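RNA of 6 libraries was extracted with TRIzol and made into stranded mRNA libraries with a TruSeq kit, per the labels' protocols. The authors deposited 1 file per library with gene symbols and values in FPKM, per the file headers. TopHat2 2.1.1, Bowtie2, Cuffdiff 2.2.1 and the build mm10 are named in the submitters' processing notes. The sources used here do not give their options, annotation or scaling. FPKM keep no total of reads, so precision was taken from the spread of 3 libraries a group. The steps between low values (under 0.3 FPKM) gave relative depths.

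Groups came from the titles. limma 3.58.1 in R 4.3.3 (eBayes with a trend) was fitted to log2(FPKM + 1) over 13215 rows averaging 1 FPKM or more, with Benjamini-Hochberg adjustment and a threshold of 0.05. Fold changes on this scale understate those of low genes. Ratios were compared with 2-sided exact permutation tests. The fit was also run on simulated data with added changes, all larger than those of the 9 genes. That run does not show how well changes of their size are recovered. Promoters came from RefSeq (GRCm38.p6), gene positions and 3′ regions from GENCODE M21 (GRCm38). Python 3.11.15, pandas 2.3.3, NumPy 2.4.6 and SciPy 1.17.1 were used. The genes, lists and tests were chosen with earlier results of these data known. Named are the 9 genes, the cone counterparts and, of each other list, the highest, the lowest and the one of smallest p; Crx, Nr2e3 and Sag were added after their values were seen, as was the search for miR-124 words, and a few genes that the rule takes, with 1 list, are not reported here. The alternatives changed the pseudocount (0.1, 0.5), the filter (none, mean of 5 FPKM) or the scaling (median-of-ratios or quantile), added a replicate block, ran eBayes without a trend or robustly, or left out short RNA rows or 1 library.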

Additional observations from a re-analysis of the deposited data

How the results depend on the processing

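In all 16 alternatives of the fit 0 of the 9 genes passed, with the smallest limma adjusted p (Benjamini-Hochberg) between 0.455 and 0.857. The signs of Gnb1, Pde6g, Cnga1 and Cngb1 were the same without each single library. Gnat1 and Pde6g came to 0 under quantile normalization, which replaces each value by the mean over libraries of the values at its rank. Without single libraries the log2 fold change ran from -0.041 to 0.044 for Gnat1, from -0.023 to 0.070 for Gngt1, from -0.029 to 0.055 for Pde6a, from -0.070 to 0.012 for Pde6b and from -0.016 to 0.058 for Slc24a1. The log2 difference of ratios ran from -0.067 to 0.11 for Gngt1 to Gnat1, from -0.0091 to 0.10 for Pde6a to Pde6b, from -0.032 to 0.041 for Pde6g to Pde6b, from -0.11 to 0.0061 for Slc24a1 to Cngb1, from -0.0042 to 0.19 for Cnga1 to Cnga3, from -0.13 to 0.091 for Cngb1 to Cngb3 and from -0.035 to 0.063 for Slc24a1 to Slc24a2. The cause was not tested.

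Same-numbered libraries deviated together at r = 0.07, 0.0063 and 0.10 across genes, and differently numbered ones at -0.12 to 0.036. These values do not decide whether the numbers are pairs. The titles name no pairing, so the main fit used none. With the replicate block 0 genes were called, and Cnga1 had a log2 fold change of -0.13 in limma, with an adjusted p of 0.455. In a balanced design the block leaves every difference as it was, -0.19 for Cnga1 to Cngb1, and the exact permutation test by sign flips over 3 pairs gave p = 0.25, the smallest it can give.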
